A study of Mus musculus with 3 samples.

Results

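The mouse HoxB cluster was examined for RNAP2 and Med12 binding in distal forelimb cells. It consists of the 10 genes Hoxb1, Hoxb2, Hoxb3, Hoxb4, Hoxb5, Hoxb6, Hoxb7, Hoxb8, Hoxb9 and Hoxb13, out of 22380 protein-coding genes annotated on mm9. The cluster lies on chromosome 11 from 96055630 at Hoxb13 to 96229570 at Hoxb1, a span of 173941 bp, and all 10 genes are transcribed in the direction from Hoxb13 to Hoxb1. Every peak that touched this span or the 100 kb on either side was taken, which gave 11 of the 20479 RNAP2 peaks and 1 of the 10634 Med12 peaks.

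Hox genes encode homeodomain transcription factors that give cells their position along the body axis, and within a cluster the order of the genes along the chromosome follows the order of their expression domains. Genes at the Hoxb1 end are known for their roles in the hindbrain and respond to retinoic acid, whereas those nearer to Hoxb13 act in the trunk and the tail. In the developing hand the best known Hox regulators are the genes at the 13 end of the HoxA and HoxD clusters. RNAP2 transcribes protein-coding genes and many noncoding RNAs, and Med12 is a subunit of Mediator, the complex that links transcription factors bound at enhancers to RNAP2.

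Both proteins were mapped by ChIP-seq in cells dissociated from dissected distal forelimbs of E12.5 embryos, the stage of the sample labels, while the text of the series gives a stage 1 day earlier. There is 1 library for RNAP2, 1 for Med12 and 1 of input chromatin, for which no peak list was used here. No treatment or genotype separates the libraries, the labels name no mouse strain, and the tissue is a mixture of cells. With 1 library per antibody no value below has a replicate error, no difference was tested, and the read depth at a peak is unknown because the lists hold positions and scores alone.

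Each peak carries the score written by the authors' peak caller, a p-value turned into its negative log10 and multiplied by 10. Scores are used here to place a peak within its own list, never to set one list against the other. The RNAP2 scores run from 40 to 3216.83 with a median of 123, and those of Med12 from 40 to 3100 with a median of 56.8. Many peaks share the value of 3100. Among coding genes with an RNAP2 peak within 1 kb of a start, the 97th, 98th and 99th percentiles of the highest score were all 3100. Peaks with a score of 3100 therefore cannot be ranked against each other. A score of 50 corresponds to the p-value threshold given in the methods of the study. Both lists go below it, as 17582 of the 20479 RNAP2 peaks and 6818 of the 10634 Med12 peaks had a score of at least 50. Peaks under 50 are counted here unless stated. As a check of the tissue, all 10 marker genes of distal limb mesenchyme had an RNAP2 peak within 1 kb of a start, with scores of 440.62 (Sall3) to 3100 (Msx1 and Hand2), and 3 of them a Med12 peak. Over all coding genes the shares were 42.2% for RNAP2 and 9.37% for Med12. None of the 5 markers of limb ectoderm and neither of the 2 liver markers had one, against 2 of 3 for cartilage, 2 of 4 for muscle, 1 of 4 for blood and endothelium and 3 of the 5 neural tube markers found in the annotation, counts too small to be told from the share of all coding genes. The neural tube is a known site of HoxB expression, and Pax6 (254.21) and Neurog2 (70.24) were among its markers with a peak. The part of these other cells in the HoxB peaks was not tested.

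The sequences that the results turn on are the bases before the starts of genes with and without a nearby RNAP2 peak, and the sites of the highest-scoring peaks inside and beside the cluster. They are given on the forward strand of mm9, which is the coding strand of all 10 genes. A set of 6 short motifs were searched on both strands, namely TATAAA (the TATA box), TGATNNAT (Hox with its partner Pbx), TTTATNG (posterior Hox proteins), AGGNGGC (the core of the CTCF motif) and a pair of GNTCA in the same direction with 6 or 3 bases between them (retinoic acid receptor half-sites). Capitals mark a motif that lies wholly within the printed bases.

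Among the 4 members with an RNAP2 peak within 1 kb of a start, Hoxb8 had the peak that covered its start. The 250 bases before the start of Hoxb8-001, chr11:96142969-96143218, hold 3 TTTATNG, 1 TGATNNAT whose first base is 11 bp upstream of the start, and 2 TATAAA on the reverse strand that overlap 2 of the TTTATNG:
Hoxb8: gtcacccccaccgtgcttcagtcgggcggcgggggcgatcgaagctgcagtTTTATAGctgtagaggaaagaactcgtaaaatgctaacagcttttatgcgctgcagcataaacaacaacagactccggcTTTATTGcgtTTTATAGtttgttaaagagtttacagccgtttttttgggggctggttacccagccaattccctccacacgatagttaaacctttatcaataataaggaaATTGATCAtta
Hoxb13 and Hoxb1, at the ends of the cluster, had no RNAP2 peak within 1 kb, and are shown for comparison. Motifs did not separate starts with a peak from those without. The 250 bases before Hoxb3-001 and Hoxb2-001, which have a peak within 1 kb, hold no whole motif. Those before Hoxb9-001, which has no peak within 1 kb, hold TGATNNAT and AGGNGGC. The bases before Hoxb13, chr11:96055380-96055629, hold 1 AGGNGGC at 147 bp upstream:
Hoxb13: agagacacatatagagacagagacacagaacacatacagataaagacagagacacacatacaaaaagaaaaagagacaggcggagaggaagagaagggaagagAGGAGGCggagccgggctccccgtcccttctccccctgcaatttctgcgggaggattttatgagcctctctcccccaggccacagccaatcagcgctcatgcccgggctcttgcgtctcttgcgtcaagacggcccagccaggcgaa
The bases before Hoxb1-001, chr11:96226816-96227065, hold 1 TGATNNAT at 156 bp upstream:
Hoxb1: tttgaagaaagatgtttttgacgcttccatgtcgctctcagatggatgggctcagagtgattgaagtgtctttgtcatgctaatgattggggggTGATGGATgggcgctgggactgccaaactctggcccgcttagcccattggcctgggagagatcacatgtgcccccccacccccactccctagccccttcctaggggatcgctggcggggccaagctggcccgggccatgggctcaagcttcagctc

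The RNAP2 peak with the highest score within the cluster lies on the noncoding gene Gm11538, between Hoxb13 and Hoxb9. Its central 300 bases, chr11:96065448-96065747, hold none of the 6 motifs and 5 CpG, with a GC content of 46%:
Gm11538 peak: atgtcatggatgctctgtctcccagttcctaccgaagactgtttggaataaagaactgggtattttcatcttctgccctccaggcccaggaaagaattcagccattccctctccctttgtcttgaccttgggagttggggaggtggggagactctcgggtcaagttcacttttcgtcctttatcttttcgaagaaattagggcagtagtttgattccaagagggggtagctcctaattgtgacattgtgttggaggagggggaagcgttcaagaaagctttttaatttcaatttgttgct
The highest score of all, and the place where the lists overlap, lies outside the cluster in the last exon of Calcoco2. The central 300 bases of the Med12 peak there, chr11:95961325-95961624, are coding sequence made of a repeated unit and hold 14 AGGNGGC and no CpG:
Calcoco2 site: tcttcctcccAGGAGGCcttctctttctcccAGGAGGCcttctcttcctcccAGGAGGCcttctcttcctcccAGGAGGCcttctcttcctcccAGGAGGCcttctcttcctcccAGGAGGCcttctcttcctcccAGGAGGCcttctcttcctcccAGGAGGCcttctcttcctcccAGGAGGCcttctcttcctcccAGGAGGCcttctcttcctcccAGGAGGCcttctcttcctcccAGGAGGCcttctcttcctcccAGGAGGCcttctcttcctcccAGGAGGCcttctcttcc

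The cluster also holds 2 microRNA genes, Mir196a-1 between Hoxb13 and Hoxb9 and Mir10a in Hoxb4, and both families are known to target Hox transcripts. Their mature 5p sequences from RefSeq (GRCm38.p6) are shown with the seed, bases 2 to 8, in capitals, and the seeds differ:
mmu-miR-196a-5p: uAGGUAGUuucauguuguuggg
mmu-miR-10a-5p: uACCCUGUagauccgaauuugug

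RNAP2 peaks were more frequent per base in the HoxB cluster than over all chromosomes, but most did not lie on the starts of Hox genes. The span holds the HoxB genes, Gm53 and several noncoding genes. Gene density was not corrected for, so the higher rate is not read as an enrichment. The span held 8 RNAP2 peaks, or 4.6 per 100 kb against 0.771 over all chromosomes, and they covered 6.99% of its bases against 1.21%. Of the 8, 6 reached a score of 100. Their median score was 114, below that of the whole list, and the highest was 296. The peaks were uneven along the cluster. The 96800 bp from Hoxb9 to Hoxb1 held 7 of them and the 74009 bp between Hoxb13 and Hoxb9 held 1. The flank on the Hoxb13 side had 3 peaks and the flank on the Hoxb1 side none.

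**Figure D1:**
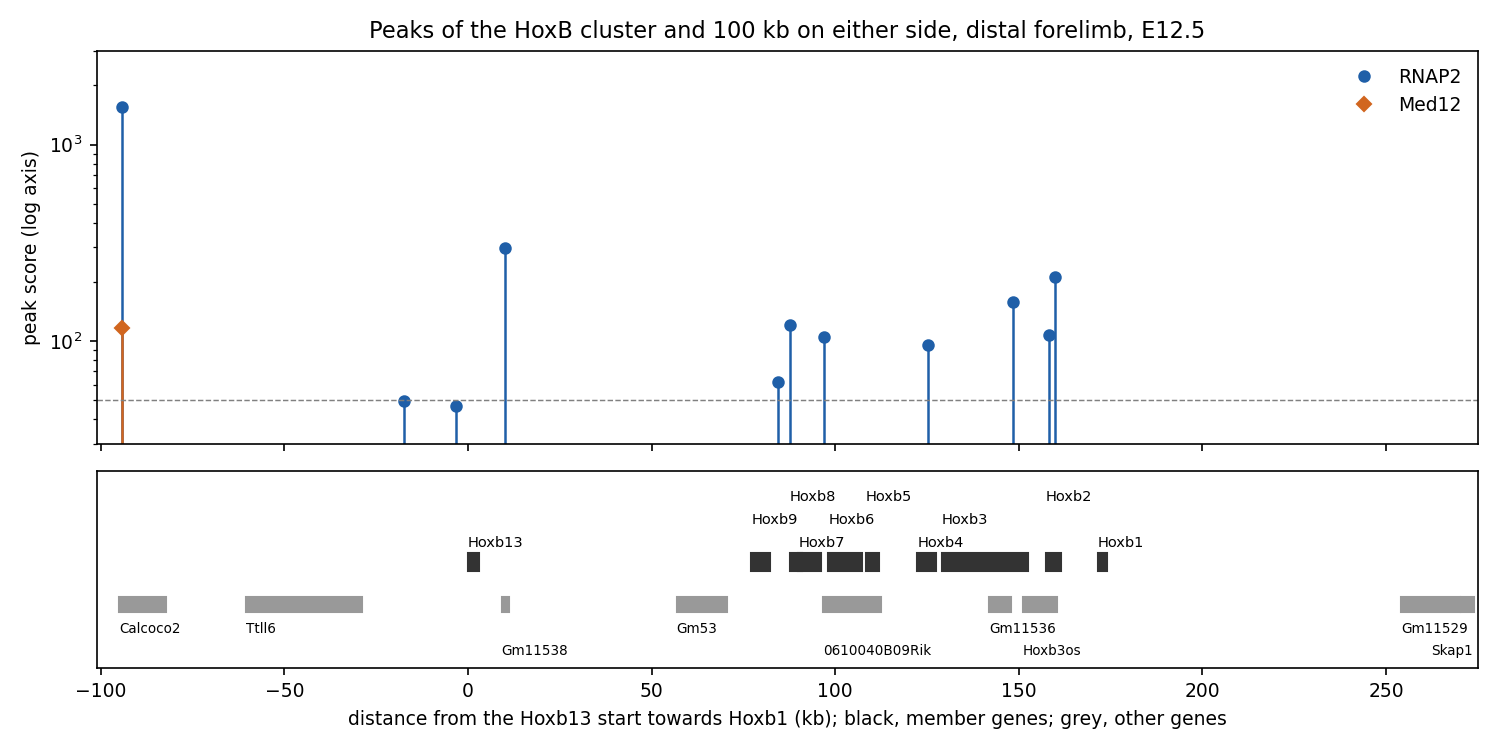
RNAP2 (circles) and Med12 (diamond) peaks of the HoxB cluster and its flanks, with the peak score on a log axis that starts at 30 against the distance of the peak centre from the Hoxb13 start in kb, and the genes below. The dashed line is a score of 50. The single Med12 peak lies under the RNAP2 peak with the score of 1554.13 at Calcoco2, 7 of the 8 peaks within the cluster lie between Hoxb9 and Hoxb1, and no peak lies beyond Hoxb2.

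Of the 10 HoxB genes, 4 had an RNAP2 peak within 1 kb of a start, namely Hoxb8, Hoxb6, Hoxb3 and Hoxb2. Over all protein-coding genes the share was 42.2% (9439 of 22380), so that 4 of 10 is close to this background. The count for the HoxB genes depended on where the peak had to lie. A peak covered the start itself in 1 of the 10, Hoxb8, against 40.7% (9111) of all coding genes. When the interval was widened to 5 kb, 7 of the 10 had a peak, with Hoxb4, Hoxb7 and Hoxb13 added, against 45.3% of coding genes. The peaks nearest to the starts of Hoxb7 were those already counted for Hoxb8 and Hoxb6, and the peak near Hoxb13 scored 46.55. With 10 closely spaced genes, neither count is read as a trait of the members. The 4 scores were low among genes with a peak at a start. The median of the highest score at a start was 383 over the 9439 genes, with quartiles of 155 and 926, and the share of these genes at or below the member was 16.5% for Hoxb6, 16.9% for Hoxb2, 19.6% for Hoxb8 and 25.5% for Hoxb3.

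**Figure D2:**
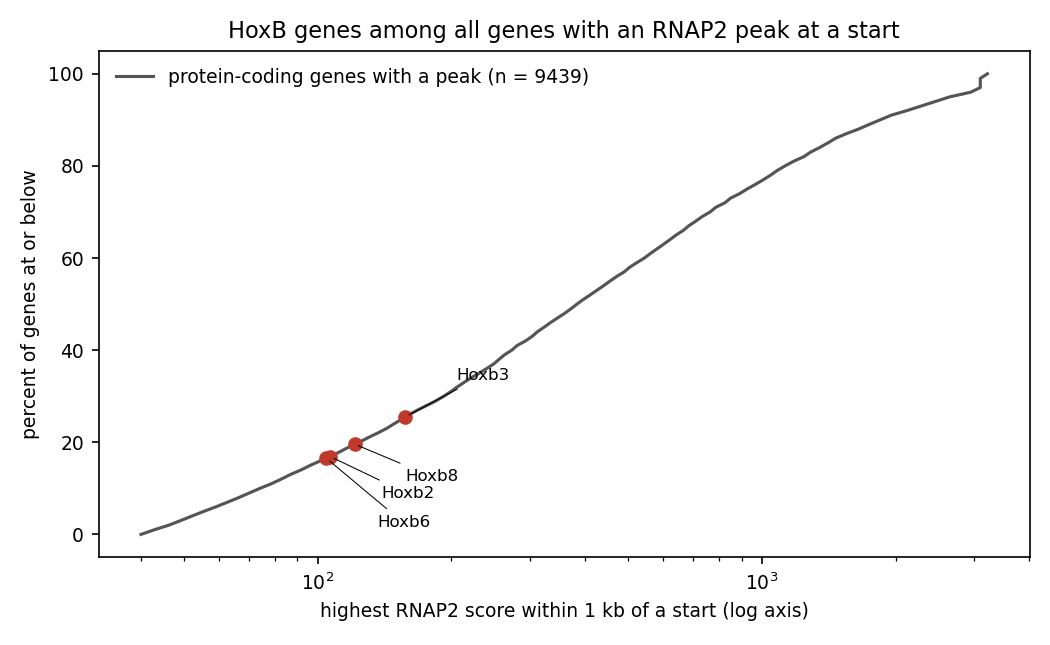
Cumulative share (%) of the 9439 protein-coding genes with an RNAP2 peak within 1 kb of a start, against the highest score of such a peak on a log axis. The red points are Hoxb6, Hoxb2, Hoxb8 and Hoxb3, which lie between 16.5% and 25.5% of the distribution.

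Hoxb13, the outermost gene, is known for its role in the tail and the prostate. No peak lay within 1 kb of its start at 96055630. The nearest RNAP2 peak, from 96051838 to 96052918, ended 2712 bp upstream and had a score of 46.55, higher than 9.86% of the list and under the score of 50. Another weak peak, from 96037398 to 96038849 with a score of 49.81, ended 16 bp before the start of the noncoding transcript Gm11535.

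Beyond Hoxb13, the peak on Gm11538 was the widest and highest-scoring of the cluster. It ran from 96064169 to 96067025, 2857 bp, had a score of 295.76 and outranked 71% of the RNAP2 list. It covered the whole of Gm11538, a long intergenic noncoding RNA gene from 96064768 to 96066794, on which 1945 of its bases were exonic. The peak began 5408 bp beyond the end of Hoxb13. From its end to 96139639 there followed 72614 bp without an RNAP2 peak. This stretch holds both starts of Hoxb9, the coding gene Gm53, the pseudogene Gm11539 and Mir196a-1.

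Hoxb9 is known from the thoracic part of the axis. Its starts at 96132771 and 96132837 had no RNAP2 peak within 1 kb. The nearest, from 96139640 to 96140681 with a score of 61.58, began 1731 bp beyond the end of the gene, in intergenic sequence 2538 bp upstream of Hoxb8.

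Hoxb8 is known for inducing an extra signalling centre when it is misexpressed in the anterior forelimb. Its peak, from 96142430 to 96143995, was 1566 bp wide, with a score of 121.05 close to the middle of the list (rank 10369, above 49.4% of peaks). It covered the starts at 96143219 and 96143870 and ended 44 bp upstream of the third at 96144039. The 3 TTTATNG in the bases before Hoxb8 lie inside this peak, 110 to 199 bp upstream of the first start. The same peak ended 1576 bp upstream of Hoxb7-001. Hoxb7, which lies next to Hoxb8 and overlaps it, had no peak within 1 kb of a start.

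Hoxb6, Hoxb5 and Hoxb4 follow. Loss of Hoxb5 is known to displace the shoulder girdle, and Hoxb4 is best known from blood stem cells. The peak of Hoxb6, which scored 104.67 and ran from 96151866 to 96153029, ended 761 bp upstream of the Hoxb6-002 start at 96153790. It began 216 bp beyond the end of Hoxb7 and overlapped an exon of 0610040B09Rik, a noncoding transcript on the opposite strand. The other Hoxb6 start, at 96160269, was 7240 bp from this peak. No peak touched the body of Hoxb6, Hoxb7 or Hoxb5. Hoxb5 lay farthest from any RNAP2 peak of all 10 genes, at 10880 bp, with Hoxb1 at 10645 bp. The stretch of 27286 bp from 96153030 to 96180315 had no RNAP2 peak and held the starts of Hoxb6, Hoxb5, Hoxb4, 0610040B09Rik and Mir10a.

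In Hoxb4 the peak lay in the gene rather than at its start. It ran from 96180316 to 96181433 with a score of 95.09, began 2318 bp downstream of the start at 96177998 and 1837 bp from Mir10a, and had 312 bp of coding sequence under it. It covered 22.6% of Hoxb4.

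Hoxb3 and Hoxb2, known from hindbrain segmentation, had the remaining 3 peaks. The peak from 96203342 to 96204629, with a score of 157.51, lay in an intron of Hoxb3 and ended 454 bp upstream of the Hoxb3-001 start at 96205083. It covered the start at 96203422 of Gm11536, a noncoding transcript on the opposite strand. The 3 other Hoxb3 starts, at 96184640, 96189376 and 96202259, had their nearest peaks 3207, 7943 and 1083 bp away. Over Hoxb2 lay a pair of peaks 90 bp apart that together covered 77.1% of the gene, the largest share of any member. The first, from 96213203 to 96214432 with a score of 106.73, began 257 bp downstream of the Hoxb2 start at 96212946. The second, from 96214523 to 96216421 with a score of 211.1, covered the start at 96216005 of Hoxb3os, a noncoding transcript that runs from there on the opposite strand towards Hoxb3.

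Hoxb1, which is known for setting the identity of a hindbrain segment, had no RNAP2 peak in its body or within 1 kb. Its first start, at 96227066, lay 10645 bp from the peak on Hoxb3os. From 96216422, within Hoxb2, to 96638208 there was no RNAP2 peak for 421787 bp, a stretch that holds Hoxb1 and the start of Skap1. The median distance between neighbouring RNAP2 peaks was 34676 bp, and 1274 of 20458 were longer than this one. At the edges of the window the last peak inside the Hoxb1 side was that on Hoxb3os, and the first outside it, with a score of 313.29, covered the start of Snx11 308639 bp beyond. On the Hoxb13 side the first peak outside had a score of 1092.1, covered the start of Atp5g1 and lay 17669 bp beyond the window.

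Starts of noncoding genes made up a larger share of the peaks than in the whole list. Of the 8 RNAP2 peaks in the span, 3 (37.5%) covered the start of a noncoding gene and of no coding gene, namely those on Gm11538, Gm11536 and Hoxb3os. In the whole list 376 peaks, or 1.84%, did so. The density of noncoding starts in the span was not compared with that over all chromosomes. The peaks on the starts of Gm11536 and Hoxb3os also lie within Hoxb3 and Hoxb2. A start of a coding gene was covered by 1 of the 8, against 41.7% (8542) of the list, and 4 covered no annotated start. The 3 peaks on noncoding starts had scores of 295.76, 211.1 and 157.51, and were the 3 highest of the cluster. The fit of the annotation to the starts used in this tissue was not tested, and transcripts on opposite strands at one place cannot be told apart by these peaks. The other entries annotated in the span, Gm53, Gm11539, 0610040B09Rik, Mir196a-1 and Mir10a, had no RNAP2 peak within 1 kb of a start. Measured from their starts, the nearest peaks lay 16716 bp from Gm53, 12092 bp from 0610040B09Rik, 13162 bp from Mir196a-1 and 1837 bp from Mir10a. The peak upstream of Hoxb6-002 overlaps an exon of 0610040B09Rik but lies away from its starts.

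The search for motifs in the 300 bases around the outermost start of each gene (250 before it and 50 after) gave TGATNNAT in 5 of the 10 genes and in 7.87% of 22375 coding genes. The 5 were Hoxb8, Hoxb3 and Hoxb2, which have a peak within 1 kb of a start, and Hoxb9 and Hoxb1, which have none. TTTATNG was found in 4 of the 10 and in 10.4% of all, and TATAAA in 2 of the 10 and in 13.4%. The 2 with TATAAA, Hoxb8 and Hoxb2, both have a peak within 1 kb. With 10 genes no link between motifs and peaks was tested. AGGNGGC was in 3 of the 10, against 31.7%. The GNTCA pair with 6 bases between was in 1, Hoxb4, and in 0.764% of all, and the pair with 3 bases in none and in 0.822%. The number of CpG in the same windows ran from 3 (Hoxb4) to 23 (Hoxb9), with a median of 11 over all coding genes. It did not separate the genes with a peak from the others. Hoxb8 had 13, whereas Hoxb9, Hoxb7 (20) and Hoxb13 (16), which have no peak within 1 kb of a start, had more. For Hoxb3 the outermost start is Hoxb3-002, which lies 3207 bp from a peak. Its start nearest to a peak, Hoxb3-001, had 3 CpG and none of the motifs.

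Med12 peaks were absent from the cluster at the threshold of the list. None of the 10 HoxB genes had a Med12 peak within 1 kb of a start, against 9.37% (2096) of all coding genes, and none did within 5 kb, against 12.6%. With 10 genes a count of 0 is close to this background. No Med12 peak lay in the span of 173941 bp, and at the rate over all chromosomes, 0.401 per 100 kb, a stretch of this length would on average hold less than 1, so that this count too is near the background. With no Med12 peak in the span, none of its 8 RNAP2 peaks could overlap one. The share of the whole RNAP2 list overlapped by Med12 was not counted, so this is not read as a trait of the cluster. The nearest Med12 peak to each of the 10 genes was the same one, at Calcoco2, 93597 bp from the start of Hoxb13 and 265033 bp from the nearer start of Hoxb1. From 95962034 to 96902092 there was no Med12 peak for 940059 bp, a stretch with 23 coding genes and 17 RNAP2 peaks. The median distance between Med12 peaks was 118129 bp, and 423 of 10613 were longer. Whether Med12 was bound below the threshold cannot be read from the list.

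The single site of the region in both lists lies 93575 bp from Hoxb13 in the last exon of Calcoco2, a gene for an autophagy receptor. The RNAP2 peak there ran from 95960786 to 95962055, with a score of 1554.13 that outranked 94.5% of the list. The Med12 peak ran from 95960915 to 95962033, with a score of 116.43 that outranked 85.9%. Of the 1270 bp of the RNAP2 peak 931 were exonic, and the nearest Calcoco2 start was 11221 bp away. The sequence under both peaks is a tandem repeat, as the printed bases show. A run of 426 bp from 95961249 to 95961674 repeats a unit of 21 bases 20.3 times, and the central 300 bases of the RNAP2 peak were 97.8% identical to themselves when shifted by 21 bases. Such an identity of at least 80% at a shift of 10 to 100 bases occurred in 49 peaks of the RNAP2 list (0.239%) and 21 of the Med12 list (0.197%), with medians of 34.1% and 33.9% over the lists. The other 10 RNAP2 peaks of the region had 29.2% to 36.1%. The part of the repeat in these scores was not tested. Without peaks on such repeats the region held 10 RNAP2 peaks and no Med12 peak. Neither Calcoco2 nor Ttll6 nor Skap1, the coding genes of the flanks, had a peak of either list within 1 kb of a start.

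The other Hox clusters had RNAP2 peaks at more of their starts, while in score the HoxC cluster was no higher than HoxB. Within 1 kb of a start an RNAP2 peak was found for 11 of 11 HoxA genes, 6 of 9 HoxC genes and 8 of 9 HoxD genes, together 25 of 29 (86.2%), against 4 of 10 for HoxB. Without peaks under a score of 100 HoxC kept 2 of its 9 genes and HoxB its 4. A start was covered in 22 of these 29 and in 1 of the 10 HoxB genes. By cluster these were 11 of 11 HoxA, 8 of 9 HoxD and 3 of 9 HoxC genes, so covered starts were also few in HoxC. RNAP2 peaks covered 64.5% of the HoxA span, 53.8% of HoxD, 23.2% of HoxC and 6.99% of HoxB. The peaks were narrower in HoxB, with a median of 1259 bp against 2614 bp in HoxA, 2694 bp in HoxD and 1547 bp in HoxC. By score HoxB was closer to HoxC. The highest score was 296 in HoxB and 220 in HoxC, against 3100 in HoxA and 2606 in HoxD, and the medians were 114, 96.2, 299 and 316. HoxB thus had fewer peaks per 100 kb (4.6) than HoxC (15.6), HoxD (13.4) and HoxA (17.1), with scores in the range of HoxC. The HoxB span includes the 74009 bp between Hoxb13 and Hoxb9. From Hoxb9 to Hoxb1 alone there were 7.23 per 100 kb and 9.61% of bases were covered, still below the other clusters.

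**Figure D3:**
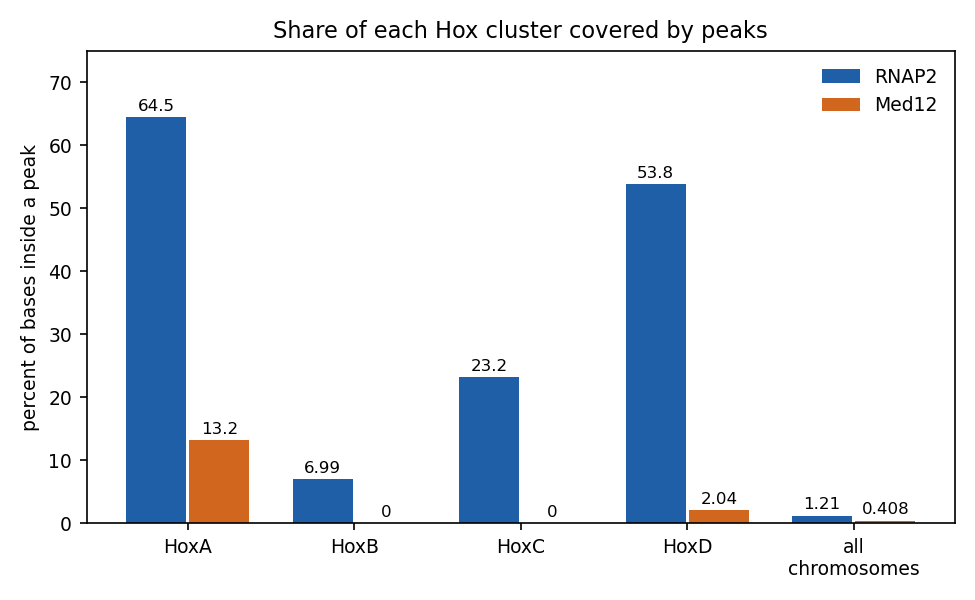
Percent of bases inside an RNAP2 peak (blue) or a Med12 peak (orange) in the span of each Hox cluster and over all chromosomes. HoxB has 6.99% for RNAP2, the lowest of the 4 clusters, and 0 for Med12, as has HoxC.

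Med12 peaks within 1 kb of a start were found for 5 of 11 HoxA genes, 2 of 9 HoxD genes and no HoxC gene. The 7 of 29 (24.1%) stand against 0 of 10 in HoxB, and they fall to 3 of 29 once scores under 100 are left out. Like HoxB, the HoxC span had no Med12 peak, and its flanks of 100 kb held 3.

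Genes that share a paralogue number descend from one ancestral Hox gene. By the highest RNAP2 score at a start, the HoxB gene was below its HoxA paralogue in each group from 2 to 13 where both exist. In group 13 the highest RNAP2 scores at a start were 1854.76 for Hoxd13, 1725.83 for Hoxa13 and 40.59 for Hoxc13, with no peak for Hoxb13. In group 9 they were 1368.98 for Hoxd9 and 1168.78 for Hoxa9, with none for Hoxc9 or Hoxb9. Group 7 had 1306.1 for Hoxa7 and no peak for Hoxb7. In each of these 3 groups the HoxA gene had a peak at a start and the HoxB gene none.

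The HoxB genes with a peak at a start were in groups 8, 6, 3 and 2. Hoxb8 had 121.05 against 362.97 for Hoxd8, while Hoxc8 had none. Hoxb6 had 104.67, near the 128.91 of Hoxc6 and far under the 1436.74 of Hoxa6, whose peak is also the one at Hoxa3. Hoxb3 had 157.51 against 1436.74 for Hoxa3 and 391.2 for Hoxd3, and Hoxb2 had 106.73 against 663.77 for Hoxa2. In the middle groups the other clusters were low as well. The paralogues of Hoxb4 had 78.7 (Hoxa4), 78.72 (Hoxc4) and 78.2 (Hoxd4), and those of Hoxb5 114.82 (Hoxa5) and 126.95 (Hoxc5). All of these lay at a start, where Hoxb4 and Hoxb5 had none. The peak in the body of Hoxb4 scored 95.09, above the start peaks of its 3 paralogues. Neither Hoxb1 nor its paralogue Hoxd1 had a peak. Neighbouring genes can share 1 wide peak, so these scores are not independent from gene to gene.

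**Figure D4:**
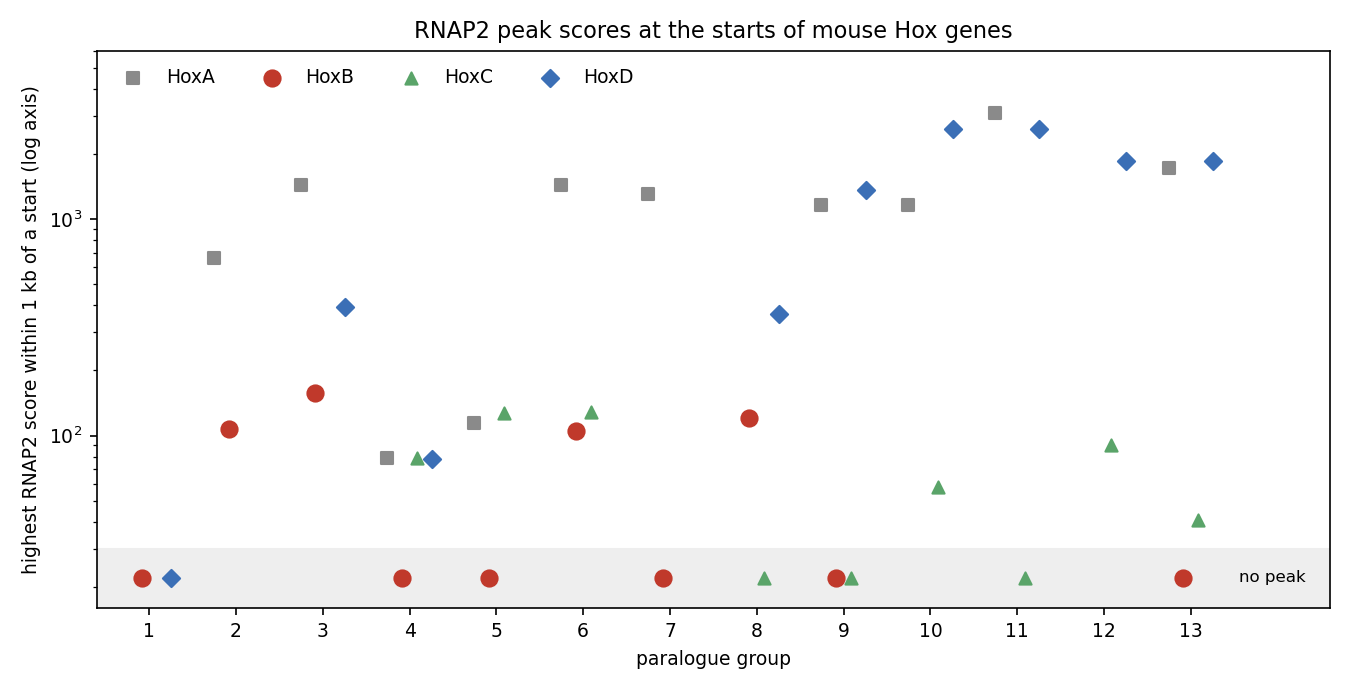
Highest RNAP2 score within 1 kb of a start, on a log axis, for mouse Hox genes by paralogue group, with 1 symbol per cluster. Symbols in the grey band have no peak. The 4 HoxB genes with a peak lie between 104.67 and 157.51, and Hoxb1, Hoxb4, Hoxb5, Hoxb7, Hoxb9 and Hoxb13 are in the band.

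Genes whose products bind with or regulate Hox genes were counted by the same rule. Of 30 such genes 23 had an RNAP2 peak within 1 kb of a start and 10 a Med12 peak, against 42.2% and 9.37% of all coding genes, and these 10 all had both. The sublists below have 2 to 11 genes and are read against the same shares. Of the 9 TALE genes, whose homeodomain products bind DNA together with Hox proteins, 7 had a peak of RNAP2 and 3 one of Med12. Meis1 had RNAP2 and Med12 scores of 581.3 and 42.2, and Meis2 of 105.95 and 49.83. Among the 11 Polycomb genes, whose products keep Hox genes silent, RNAP2 peaks were found at 9 and Med12 peaks at 3. They held the 4 highest RNAP2 scores of the list, 1892.01 for Ezh2, 1464.99 for Suz12, 1081.51 for Rnf2 and 1026.26 for Eed, and Men1, a partner of the Mll methyltransferases that keep Hox genes active, followed with 724.71. Of the 8 activators RNAP2 was found at 5 and Med12 at 4. The highest Med12 scores of the list were 287.98 for Rarg, 280.44 for Kmt2a (Mll1 in the annotation) and 131.72 for Rarb, then 127.84 for Eed and 106.93 for Suz12. Rarg and Rarb encode retinoic acid receptors. Cdx1, Cdx2 and Cdx4, which activate posterior Hox genes in the trunk, had no peak of either list. Both insulator genes, Ctcf (488.73) and Rad21 (240.89), had an RNAP2 peak and no Med12 peak.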

How the data were processed

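The peak lists were made by the authors from 1 RNAP2 and 1 Med12 ChIP-seq library. Per the methods of the study, the first base of the reads was trimmed, reads were mapped to mm9 with Bowtie, redundant reads were removed and peaks were called with MACS 1.4.1. Whether the input served as a control for the peak caller is not stated there. The deposited value of each peak is a score, the negative log10 of a p-value multiplied by 10, which grows with depth and width. The lists hold no counts, so no depth or counting error could be given for a peak.

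Starts in the lists were read as counted from 0 and are printed counted from 1. Peaks were overlapped (at least 1 bp) with GENCODE vM1 genes in Python 3.11.15 with numpy 2.4.6, checked on simulated peaks, and figures were drawn with matplotlib 3.10.9. A gene has a peak when one lies within 1 kb of the start of any of its transcripts. The 2 annotation entries of Hoxa3 were merged. Sequences are those of the mm9 reference, or RefSeq for microRNAs, and bases after a start were searched but not printed. Some genes and sequences are not reported here.

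Named genes were the members, all other genes in the span, coding genes of the flanks and, from lists of Hox partners and cell markers, those with the highest scores. The paralogue values, the markers and other Hox genes named with a value, and the tandem repeat were chosen after values were seen. The members and lists were chosen with earlier results of these data known. Alternatives were another minimum score, promoter interval, set of starts, flank length or overlap, and leaving out peaks on tandem repeats.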

Additional observations from a re-analysis of the deposited data

How the results depend on the processing

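Of 68 values recomputed for 13 results under 10 alternatives, 50 stayed close to the reported value (within 1.5 times for counts, within the 95% Wilson interval, from scipy 1.17.1, for shares of bases) and 18 did not. The HoxB genes with an RNAP2 peak were 7 at 5 kb and 1 where the peak had to cover the start. None had a Med12 peak in any setting. The region held 7 RNAP2 peaks at a score of at least 100 and 17 with flanks of 200 kb. Its Med12 peaks, and its RNAP2 peaks overlapped by one, were both 0 with flanks of 50 kb, 2 with flanks of 200 kb and 0 without peaks on tandem repeats, a setting chosen after seeing the data. RNAP2 coverage of the span was 5.75% at a score of at least 100. Its interval treats neighbouring bases as independent and is so narrow that losing a peak leaves it. For Med12, the other Hox genes numbered 3 at a score of at least 100, 11 at 5 kb and 3 where the start was covered, the partner genes 5 at a score of at least 100, 6 at 50 and 6 with the 5′ end of the gene alone, and all coding genes 527 at a score of at least 100. The cause was not tested.

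Scores rest on 1 library each, and an absent peak means only that no peak reached the threshold. No paired analysis was possible because no antibody has more than 1 library and nothing was tested.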
